A study of Arabidopsis thaliana with 12 samples.

Results

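The group A basic leucine zipper (bZIP) factors ABI5 (AT2G36270), ABF1 (AT1G49720), ABF2 (AT1G45249), ABF3 (AT4G34000), ABF4 (AT3G19290), EEL (AT2G41070), DPBF2 (AT3G44460) and AREB3 (AT3G56850) were followed through RNA sequencing of Arabidopsis thaliana seeds. They are 8 of the 36795 loci in the deposited tables and were taken by their locus identifiers, each given whatever its result. The family itself was chosen with earlier results of these data known. All 8 passed the filter on low counts, among 18413 genes that did, DPBF2 through its odr1-2 libraries alone. Seeds of the mutant odr1-2 and of the wild type Col-0 were compared, each in mannitol and in water. The 4 groups of 3 libraries were odr1-2 in 300 mM mannitol, odr1-2 in water, Col-0 in 300 mM mannitol and Col-0 in water. Mannitol served as an osmotic stress, and water as its control. What all 4 groups share is that the seeds were after-ripened, were kept for 2 days at 4°C and were then held for 12 h in the medium. The labels say no more of the odr1-2 allele, and the ODR1 transcript was not analysed here. Nor do they say whether replicates came from separate seed lots, so the p-values measure the spread between these libraries.

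Group A bZIP factors carry abscisic acid (ABA) signals to genes. When ABA binds its receptors, clade A phosphatases are held back, SnRK2 kinases become active and phosphorylate the bZIP factors, and these bind the ABA-responsive element (ABRE), a DNA element around an ACGT core, as pairs. ABI5 is the best known member in seeds, where it holds back germination and activates late embryogenesis genes such as EM1 and EM6. ABF1, ABF2, ABF3 and ABF4 are best known from drought and salt responses of growing plants. EEL, DPBF2 and AREB3 are expressed in maturing embryos. EEL competes with ABI5 for the EM1 promoter, and DPBF2, also named bZIP67, activates FAD3 and DOG1. ODR1 is known as a regulator of seed dormancy that acts on ABA synthesis.

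Library totals ran from 10060020 to 13693166 counts. Levels are given as TPM, which scale transcripts to depth and to gene length, so that levels of different genes can be set side by side. The length is that of all annotated exons of a gene together, from 10 transcripts for ABF2 and 1 for DPBF2 and AREB3. Which transcripts the seeds held was not tested, so ranks and shares between genes depend on this length. Differences between groups are log2 fold changes ± their standard error (SE). Higher, lower and called are used of genes with an adjusted p under 0.05 by edgeR's quasi-likelihood test, adjusted over all 18413 genes. Embryo markers matched the labelled tissue: the summed TPM of 7 storage protein and oil body genes ran from 34600 to 35400 in odr1-2 in mannitol, 21500 to 22100 in odr1-2 in water, 18100 to 19800 in Col-0 in mannitol and 8520 to 8620 in Col-0 in water. The summed TPM of 4 endosperm genes was 9350 to 10100, 8630 to 9590, 3050 to 4980 and 3480 to 3850 in the same order of groups, and the endosperm factor ZOU held 1 count over the 12 libraries. The 3 seed coat genes summed to at most 2.83, 4.81, 4.74 and 5.97 TPM, with BAN at 1 count likewise. The 3 green tissue genes summed to 406 to 433, 454 to 469, 613 to 641 and 581 to 591 TPM. Nearly all of the green sum was RBCS1A, with CAB1 at means of at most 2.84 TPM and LHCB2.1 at 0 counts. Members did not all follow their sum. In odr1-2 against Col-0 in mannitol, 6 storage genes were higher and CRU2 was lower (-0.29 ± 0.04). In water 5 were higher, CRU2 was lower (-0.27 ± 0.04) and SESA4 was not called. In odr1-2, the endosperm gene EXPA2 was lower in mannitol than in water (-0.36 ± 0.04), and MAN7 and EPR1 were not called. The marker sums moved with the groups compared, and their part in the results on the bZIP genes was not tested. In whole seeds, fewer cells of a type and less RNA per cell cannot be told apart.

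The 8 proteins share the part of the bZIP domain that touches DNA, and its coding sequence is shown for each. The other group A genes were not compared in this stretch. Each line below gives 33 bases of coding DNA, 5′ to 3′, from the RefSeq annotation of TAIR10.1, with the codons of the invariant asparagine and arginine of the basic region in capitals.
ABI5: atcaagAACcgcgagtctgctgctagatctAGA
ABF1: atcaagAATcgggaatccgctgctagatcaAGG
ABF2: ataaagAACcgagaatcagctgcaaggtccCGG
ABF3: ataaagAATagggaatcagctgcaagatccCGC
ABF4: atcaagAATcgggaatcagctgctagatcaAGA
EEL: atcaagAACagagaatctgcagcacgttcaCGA
DPBF2: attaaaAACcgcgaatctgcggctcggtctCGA
AREB3: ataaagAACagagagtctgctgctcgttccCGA
All 28 pairs of genes encode the same amino acid at each of these 11 codons, while their bases match at 63.6% to 93.9% of positions. The stretch was located by its asparagine and arginine, so the codons in capitals were bound to encode the same amino acids. Across whole transcripts the longest exact run shared by any pair was 26 bases, between ABF1 and ABF4. EEL and AREB3 shared a run of 24 bases, and ABI5 and AREB3 a run of 21 bases.

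ABI5 lies on chromosome 2 at 15204659 to 15207636, minus strand, and EEL on the same chromosome at 17129753 to 17132386, plus strand. ABF4 lies on chromosome 3 at 6687042 to 6690123, plus strand, and DPBF2 on chromosome 3 at 16079432 to 16081906, minus strand. ABF1 lies on chromosome 1 at 18400003 to 18402628, plus strand, ABF2 on chromosome 1 at 17165125 to 17167924, minus strand, ABF3 on chromosome 4 at 16295334 to 16298285, plus strand, and AREB3 on chromosome 3 at 21046234 to 21048614, minus strand. ABI5, EEL, ABF4 and DPBF2 were called in both comparisons of odr1-2 with Col-0, and the 300 bases before their annotated starts are printed for that reason, read on the gene's own strand from TAIR10.1. Capitals mark ACGTG, the core of the ABRE, CACGTG, the G-box, and CATGCA, the RY element bound by embryo B3 factors such as FUS3 and ABI3, all searched on both strands. A G-box holds ACGTG on both strands and so counts as 2 matches of it.
ABI5, chr2:15207637-15207936, minus strand: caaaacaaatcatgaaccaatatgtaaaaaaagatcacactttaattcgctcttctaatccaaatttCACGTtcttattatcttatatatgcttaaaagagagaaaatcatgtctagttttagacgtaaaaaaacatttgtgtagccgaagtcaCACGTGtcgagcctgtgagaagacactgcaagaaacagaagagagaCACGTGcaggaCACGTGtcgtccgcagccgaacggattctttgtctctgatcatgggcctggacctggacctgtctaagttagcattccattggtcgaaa
ABF4, chr3:6686742-6687041, plus strand: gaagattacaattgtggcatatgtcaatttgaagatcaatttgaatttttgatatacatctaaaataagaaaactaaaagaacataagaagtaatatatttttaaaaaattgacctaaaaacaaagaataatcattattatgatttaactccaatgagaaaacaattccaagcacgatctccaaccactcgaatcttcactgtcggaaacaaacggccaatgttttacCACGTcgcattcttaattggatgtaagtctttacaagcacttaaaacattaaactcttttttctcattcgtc
EEL, chr2:17129453-17129752, plus strand: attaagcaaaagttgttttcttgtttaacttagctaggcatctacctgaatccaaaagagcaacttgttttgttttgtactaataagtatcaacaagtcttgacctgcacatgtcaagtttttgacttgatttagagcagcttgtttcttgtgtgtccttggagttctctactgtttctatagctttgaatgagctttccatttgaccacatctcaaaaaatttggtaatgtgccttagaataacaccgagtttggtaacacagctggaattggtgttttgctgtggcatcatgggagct
DPBF2, chr3:16081907-16082206, minus strand: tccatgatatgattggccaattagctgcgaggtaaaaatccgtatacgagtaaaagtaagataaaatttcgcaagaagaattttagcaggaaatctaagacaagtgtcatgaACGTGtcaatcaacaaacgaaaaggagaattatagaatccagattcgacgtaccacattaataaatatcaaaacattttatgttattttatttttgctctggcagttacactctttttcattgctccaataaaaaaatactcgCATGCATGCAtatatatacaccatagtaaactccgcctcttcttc
The ABI5 window held 3 G-boxes, starting at positions -146, -100 and -89 from the gene start, and 1 further ACGTG match at -233. Of 27437 promoter windows of this length, 7.09% held at least 1 G-box and 33 windows, or 0.12%, held at least 3. The DPBF2 window held 3 overlapping RY matches, starting at -45, -43 and -41, an element found in 10.3% of windows, and 1 ACGTG match at -188. ABF4 held 1 ACGTG match at -72. EEL had no match of these letters in its window. Across the family, ACGTG was found in 5 of 8 windows, those of ABI5, ABF1, ABF3, ABF4 and DPBF2, against 25.6% of all windows. ABF2 and AREB3 had no match either. A match is a string of letters and not a shown binding site.

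**Figure D1:**
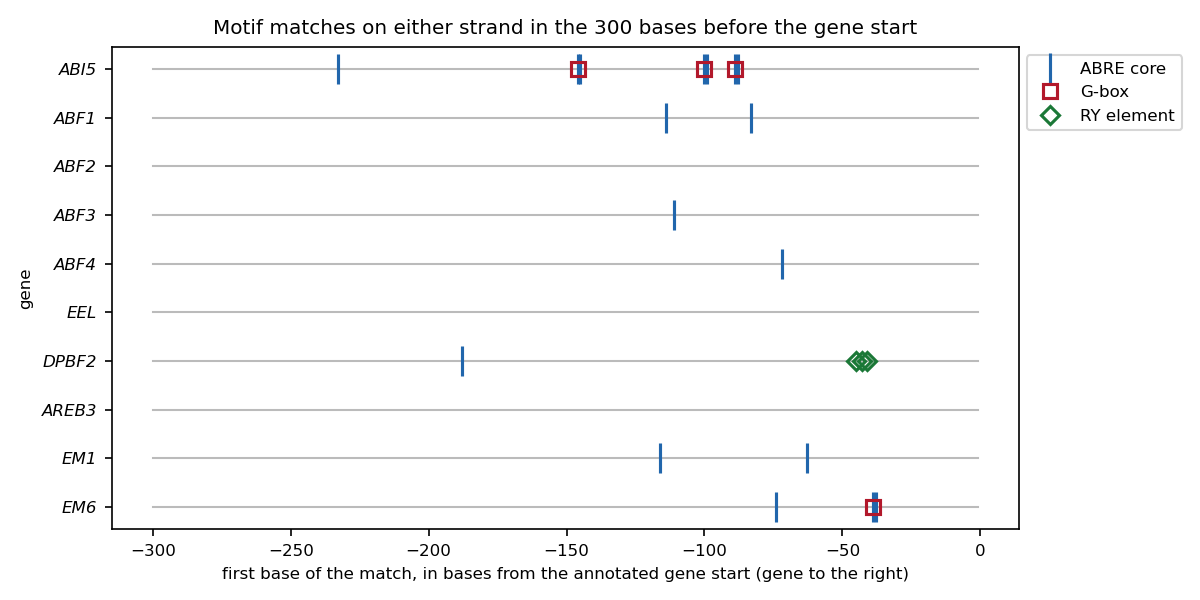
Matches of ACGTG (ABRE core, bars), CACGTG (G-box, squares) and CATGCA (RY element, diamonds) on either strand in the 300 bases before the annotated start of the 8 bZIP genes and of the ABI5 targets EM1 and EM6. The horizontal axis is the first base of a match in bases from the gene start. ABI5 alone among the 8 bZIP genes held G-boxes in this window, and DPBF2 alone held RY matches.

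ABI5 was the most abundant of the 8 genes in each of the 12 libraries. Its level was 124.47, 111.21 and 108.65 TPM in odr1-2 in mannitol, 93.5, 95.01 and 95.91 TPM in odr1-2 in water, 105.9, 108.78 and 107.3 TPM in Col-0 in mannitol and 82.3, 87.96 and 79.42 TPM in Col-0 in water. The mannitol libraries stood above the water libraries of the same genotype without overlap, and the odr1-2 and Col-0 mannitol libraries met between 108.65 and 108.78 TPM. Its group means lay between the 88.1st and the 92.4th percentile of all tested genes.

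EEL, the competitor of ABI5 at EM1, separated all 4 groups. It stood at 60.0, 54.21 and 53.21 TPM in odr1-2 in mannitol, 27.52, 27.77 and 24.64 TPM in odr1-2 in water, 33.66, 32.08 and 29.36 TPM in Col-0 in mannitol and 12.53, 14.46 and 12.52 TPM in Col-0 in water. Col-0 in mannitol stood just above odr1-2 in water, with 29.36 TPM as its lowest library against 27.77 TPM as the highest. The percentile of EEL among tested genes was 82.8 in odr1-2 in mannitol and 45 in Col-0 in water. EEL shares 23 exon bases, 1.52% of its exon length, with AT2G41060 on the same strand, whose counts were 87% to 324% of its own.

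ABF4, known for the expression of ABA-responsive genes under osmotic stress, had 31.08, 32.32 and 32.8 TPM in odr1-2 in mannitol, 14.88, 15.16 and 15.88 TPM in odr1-2 in water, 17.38, 15.78 and 15.84 TPM in Col-0 in mannitol and 8.03, 7.93 and 9.18 TPM in Col-0 in water. The middle pair, Col-0 in mannitol and odr1-2 in water, overlapped, and the outer groups stood apart from them. ABF4 shares 754 exon bases, 28.9% of its exon length, with AT3G03815 on the other strand. That gene had 678, 315, 365 and 150 counts in odr1-2 in mannitol, odr1-2 in water, Col-0 in mannitol and Col-0 in water, which is 30.9% to 39.7% of the ABF4 counts. Whether counting used strand is not given in the sources used here, so reads of the 2 genes cannot be told apart, and the part of this gene in the ABF4 values was not tested.

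AREB3, an embryo member, kept to a narrow range, at 27.41, 31.84 and 27.25 TPM in odr1-2 in mannitol, 27.38, 26.34 and 26.71 TPM in odr1-2 in water, 30.79, 25.03 and 27.08 TPM in Col-0 in mannitol and 26.65, 23.09 and 24.0 TPM in Col-0 in water. All neighbours in its order of groups overlapped. It shares 113 exon bases with AT3G56840 on the other strand, whose counts were 31.6% to 36.7% of its own.

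ABF1 had 10.86, 6.85 and 9.52 TPM in odr1-2 in mannitol, 7.31, 4.56 and 6.09 TPM in odr1-2 in water, 9.05, 8.18 and 7.04 TPM in Col-0 in mannitol and 5.51, 4.6 and 5.4 TPM in Col-0 in water. ABF2 had 4.38, 5.13 and 4.38 TPM in odr1-2 in mannitol, 2.68, 3.27 and 3.65 TPM in odr1-2 in water, 3.63, 3.46 and 4.74 TPM in Col-0 in mannitol and 2.19, 3.67 and 2.91 TPM in Col-0 in water. In both genes each group overlapped its neighbour in the order of means, with mannitol means above water means. ABF1 shares 123 exon bases with AT1G49730 on the other strand, which had 312, 520, 348 and 512 counts in odr1-2 in mannitol, odr1-2 in water, Col-0 in mannitol and Col-0 in water, fewer in mannitol. ABF3 lay between 0.97 and 2.19 TPM over the 12 libraries, and its highest and its lowest library were both from Col-0 in water. ABF3 shares 24 exon bases with AT4G34020 on the other strand, whose counts were 2040% to 2860% of its own.

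DPBF2 was the least abundant member in both Col-0 groups and had the largest fold between genotypes. It was counted 20, 30 and 19 times in odr1-2 in mannitol, 11, 23 and 26 times in odr1-2 in water, 1, 8 and 4 times in Col-0 in mannitol and 5, 5 and 5 times in Col-0 in water. As levels, these are 1.53, 2.29 and 1.42 TPM in odr1-2 in mannitol, 0.97, 1.59 and 1.68 TPM in odr1-2 in water, 0.09, 0.59 and 0.3 TPM in Col-0 in mannitol and 0.43, 0.37 and 0.35 TPM in Col-0 in water. Every odr1-2 library stood above every Col-0 library, and within each genotype the media overlapped. The pooled counts of the group gave 2.02 CPM (counts scaled to depth alone) in odr1-2 in mannitol (exact 95% Poisson interval 1.57 to 2.55) and 0.388 in Col-0 in mannitol (0.206 to 0.663), where the intervals cover counting error only.

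**Figure D2:**
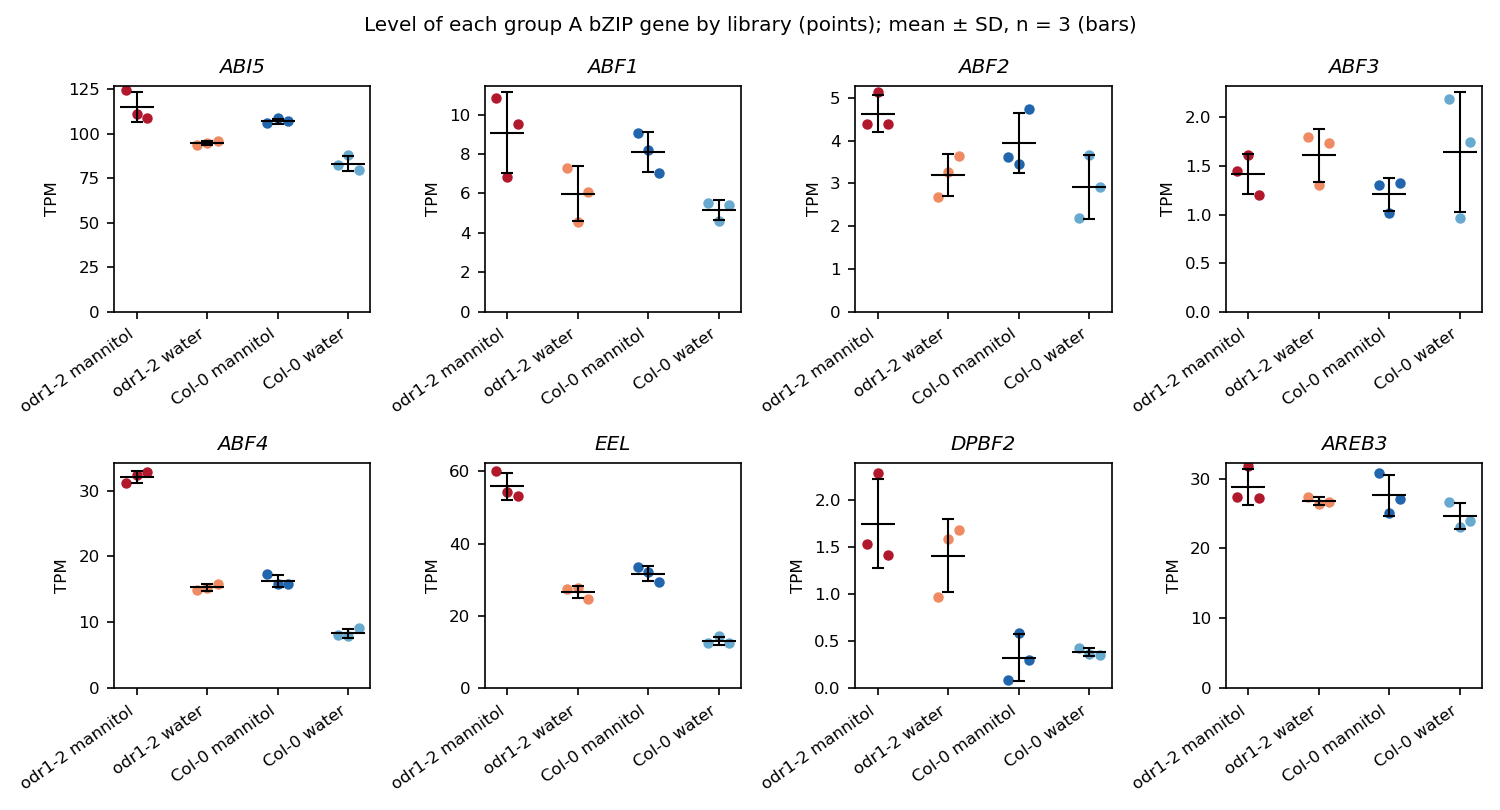
Level of each of the 8 bZIP genes in TPM (vertical axes, each from 0) in odr1-2 in mannitol, odr1-2 in water, Col-0 in mannitol and Col-0 in water. Points are libraries and black bars are mean ± SD (n = 3 each). EEL and ABF4 step up from Col-0 in water to odr1-2 in mannitol, DPBF2 separates the genotypes, and ABF3 shows no such order.

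Mannitol was set against water within odr1-2 to ask how the mutant's seeds responded to osmotic stress. In odr1-2, 6 of the 8 genes were higher in mannitol and 0 were lower: ABI5, ABF1, ABF2, ABF4, EEL and AREB3. Among all tested genes 42.5% were called in this comparison, 21.2% higher and 21.3% lower. The median log2 fold change of the 8 genes was 0.50, against a median of all tested genes that rounds to 0.00. EEL averaged 55.8 ± 3.67 TPM in mannitol and 26.6 ± 1.74 TPM in water (SD, n = 3 each), a log2 fold change of 1.17 ± 0.09 (adjusted p = 7.88e-19), and ABF4 averaged 32.1 ± 0.888 TPM in mannitol and 15.3 ± 0.516 TPM in water, likewise 1.17 ± 0.09 (adjusted p = 4.06e-19). ABF1 was higher by 0.72 ± 0.18 and ABF2 by 0.62 ± 0.19. ABI5 averaged 115 ± 8.49 TPM in mannitol and 94.8 ± 1.22 TPM in water, a smaller log2 fold change of 0.38 ± 0.06 (adjusted p = 2.91e-08). AREB3 was higher by 0.21 ± 0.09 (adjusted p = 0.0464), and 11 of 23 alternatives gave no call for it. Among these were the fits that left out replicate 1 (0.21) or 3 (0.21) of Col-0 in water, replicate 1 (0.21), 2 (0.20) or 3 (0.21) of odr1-2 in water, or replicate 2 (0.13) of odr1-2 in mannitol. ABF3 (-0.08 ± 0.31) and DPBF2 (0.38 ± 0.40) were not called.

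The same contrast within Col-0 gave the wild-type response. In Col-0, 5 of the 8 genes were higher in mannitol and 0 were lower: ABI5, ABF1, ABF4, EEL and AREB3, where 42.4% of all tested genes were called, 21.0% higher and 21.4% lower. Their median log2 fold change over all 8 genes was 0.45. EEL averaged 31.7 ± 2.18 TPM in mannitol and 13.2 ± 1.12 TPM in water (SD, n = 3 each), a log2 fold change of 1.32 ± 0.10 (adjusted p = 4.47e-18). ABF4 averaged 16.3 ± 0.907 TPM in mannitol and 8.38 ± 0.695 TPM in water, a log2 fold change of 1.01 ± 0.10 (adjusted p = 1.26e-13). ABF1 was higher by 0.70 ± 0.18 and ABI5 by 0.42 ± 0.06. ABF2 lay at the threshold, with 0.48 ± 0.20 and an adjusted p of 0.05002. It passed when replicate 2 of Col-0 in water (0.67), replicate 1 (0.55) or 2 (0.55) of Col-0 in mannitol, or replicate 1 of odr1-2 in water (0.48) was left out. AREB3 was higher by 0.22 ± 0.09 (adjusted p = 0.038), a call lost in 9 of 23 alternatives, among them those that left out replicate 2 (0.18) or 3 (0.20) of Col-0 in water, or replicate 1 (0.16) or 3 (0.23) of Col-0 in mannitol. ABF3 (-0.36 ± 0.32) and DPBF2 (-0.12 ± 0.66) were not called.

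In mannitol, odr1-2 was set against Col-0 to ask how the mutant differed under stress. Here 4 of the 8 genes were higher in odr1-2 and 0 were lower: DPBF2, ABF4, EEL and ABI5, where 40.1% of all tested genes were called, 20.5% higher and 19.6% lower. DPBF2 showed the largest fitted difference of the 8, 2.41 ± 0.51 on the log2 scale or 5.3-fold (adjusted p = 7.78e-05), and it rests on 69 counts in odr1-2 and 13 in Col-0. DPBF2 passed the filter on low counts through odr1-2 alone, which limits what this call can show. Without Col-0 mannitol replicate 2, the Col-0 library with the most DPBF2 counts, the log2 fold change was 3.15, and limma-trend on log2 of TPM plus 1 gave 1.05. ABF4 was higher by 1.04 ± 0.09 (adjusted p = 9.82e-17) and EEL by 0.88 ± 0.09 (adjusted p = 1.05e-13). ABI5 was higher by 0.16 ± 0.06 (adjusted p = 0.015). That call was lost without Col-0 mannitol replicate 1 (0.13), without odr1-2 mannitol replicate 1 (0.10) and in 3 other alternatives. ABF1 (0.23 ± 0.17), ABF2 (0.29 ± 0.19), ABF3 (0.29 ± 0.33) and AREB3 (0.13 ± 0.09) were not called.

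In water, with no osmotic stress, the same 4 genes were higher in odr1-2 than in Col-0 and 0 were lower, where 39.0% of all tested genes were called, 20.4% higher and 18.6% lower. DPBF2 had 60 counts in odr1-2 and 15 in Col-0, a log2 fold change of 1.90 ± 0.51 or 3.73-fold (adjusted p = 0.00174), and limma-trend on log2 of TPM plus 1 gave 0.79. The limit set by the filter holds for this DPBF2 call too. EEL was higher by 1.03 ± 0.10 (adjusted p = 3.88e-13), ABF4 by 0.88 ± 0.10 (adjusted p = 2.41e-11) and ABI5 by 0.20 ± 0.06 (adjusted p = 0.00238). The values of ABF1 (0.21 ± 0.19), ABF2 (0.15 ± 0.21), ABF3 (0.00 ± 0.31) and AREB3 (0.14 ± 0.09) did not pass. These comparisons share libraries in pairs, each group entering 2 of them, so their counts of calls are not independent. The family was chosen with earlier results of these data known, so its counts beside those of all tested genes are a description.

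**Figure D3:**
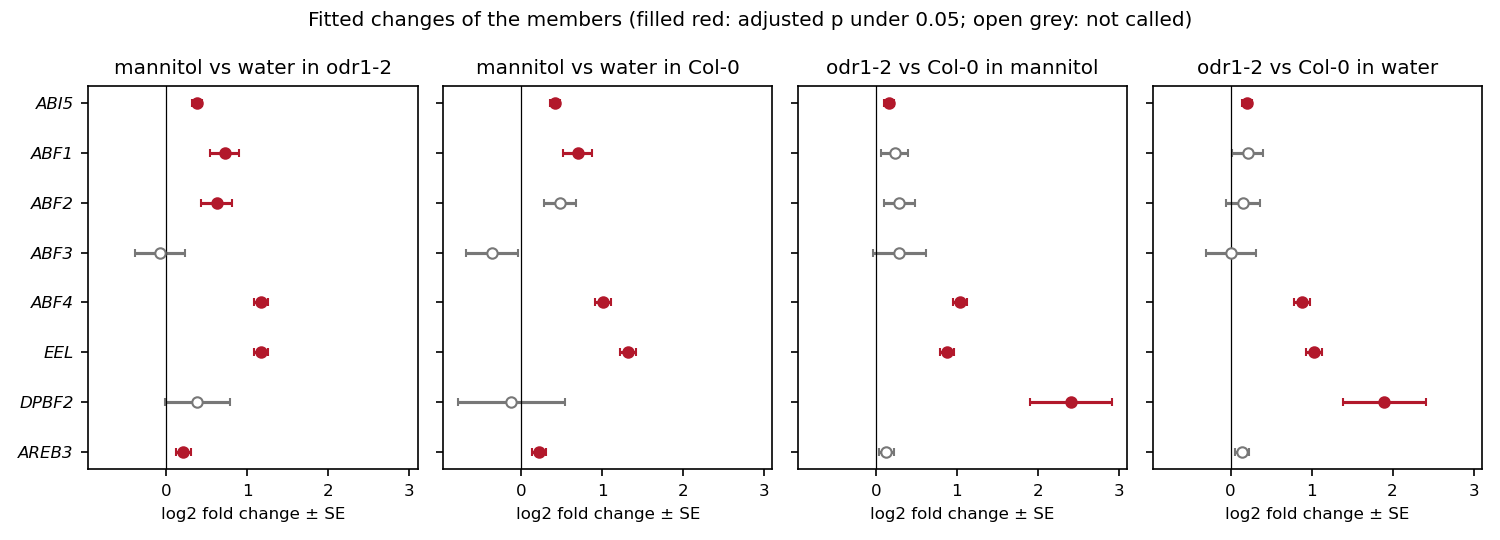
Log2 fold change ± SE of the 8 bZIP genes in mannitol against water within odr1-2 and within Col-0, and in odr1-2 against Col-0 within mannitol and within water. Filled red points have an adjusted p under 0.05. ABI5, ABF4 and EEL are called in all 4 panels, DPBF2 in the genotype panels, ABF1 and AREB3 in the mannitol panels, ABF2 in the odr1-2 mannitol panel and ABF3 in none.

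The interaction asks whether mannitol changed a gene by a different factor in odr1-2 than in Col-0. It called 0 of the 8 genes with edgeR, where 3.75% of all tested genes were called, 1.08% higher and 2.67% lower, and 0 had an unadjusted p under 0.05. DESeq2, limma-voom and limma-trend on TPM called 0 as well. The fitted difference in log2 fold change, odr1-2 minus Col-0, was -0.04 for ABI5 (95% interval -0.23 to 0.14), -0.15 for EEL (-0.46 to 0.17), 0.16 for ABF4 (-0.15 to 0.46) and -0.01 for AREB3 (-0.30 to 0.28). For these 4 genes the interval leaves room for a difference of at most 0.46 in size. The remaining intervals were wider, -0.58 to 0.61 for ABF1, -0.50 to 0.79 for ABF2, -0.76 to 1.33 for ABF3 and -1.29 to 2.3 for DPBF2.

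The make-up of the family differed between groups, with more EEL and ABF4 for each ABI5 transcript in mannitol and in odr1-2. The 8 genes together summed to 248 ± 11.6 TPM in odr1-2 in mannitol, 176 ± 0.688 TPM in odr1-2 in water, 197 ± 4.63 TPM in Col-0 in mannitol and 139 ± 3.77 TPM in Col-0 in water (SD, n = 3 each). ABI5 made up 46.2% ± 1.29 of that sum in odr1-2 in mannitol, 53.9% ± 0.714 in odr1-2 in water, 54.6% ± 1.87 in Col-0 in mannitol and 59.6% ± 1.6 in Col-0 in water. EEL made up 22.5%, 15.2%, 16.1% and 9.44% in the same order of groups, and ABF4 12.9%, 8.71%, 8.31% and 6.02%. The share of AREB3 ran the other way, at 11.6%, 15.3%, 14% and 17.6%. Shares of 1 sum depend on each other, so that a lower share is not a lower level.

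The ratio of ABI5 to EEL within a library does not depend on how libraries are scaled. It was 2.07, 2.05 and 2.04 in odr1-2 in mannitol, 3.4, 3.42 and 3.89 in odr1-2 in water, 3.15, 3.39 and 3.65 in Col-0 in mannitol and 6.57, 6.08 and 6.34 in Col-0 in water. The groups odr1-2 in water and Col-0 in mannitol overlapped, with odr1-2 in mannitol below them and Col-0 in water above. ABI5 to ABF4 gave 4, 3.44 and 3.31 in odr1-2 in mannitol, 6.28, 6.27 and 6.04 in odr1-2 in water, 6.09, 6.89 and 6.77 in Col-0 in mannitol and 10.2, 11.1 and 8.65 in Col-0 in water. The log2 ratio of ABI5 to each of the other 7 genes was compared between media within genotypes and between genotypes within media, 14 two-sided exact permutation tests over 400 regroupings each, added after the values were seen. ABI5 to EEL was lower in mannitol than in water by a mean of -0.85 and lower in odr1-2 than in Col-0 by -0.78, and ABI5 to ABF4 by -0.70 and -0.78. ABI5 to DPBF2, a gene kept by the filter through odr1-2 alone, was lower in odr1-2 than in Col-0 by -2.16. Each of these 5 exact tests gave p = 0.005, the smallest these permutations can give, and 0.014 after Benjamini-Hochberg adjustment over the 14. The other 9 gave adjusted permutation p-values from 0.07 to 0.975. Of these, ABI5 to ABF3 between media passed without replicate 2 of Col-0 in water (0.78), and ABI5 to AREB3 without replicate 2 of odr1-2 in mannitol (0.23), against 0.59 and 0.19 over all libraries.

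**Figure D4:**
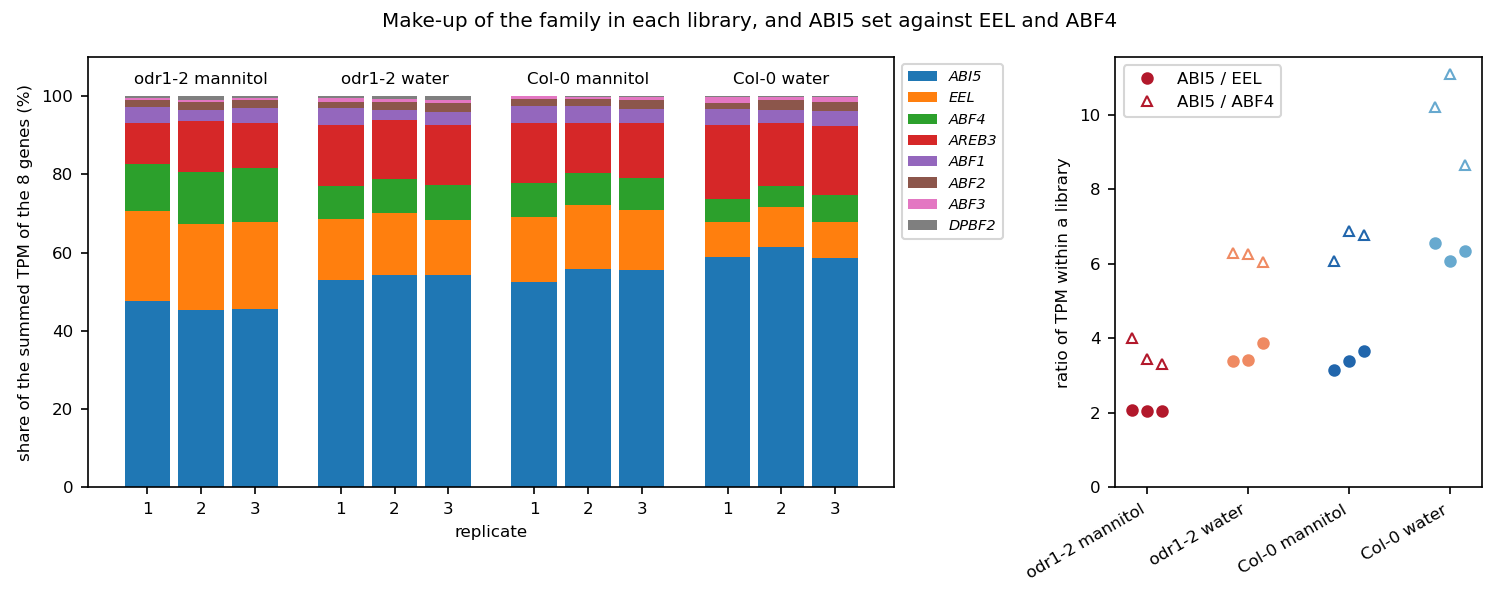
Left, share of each gene in the summed TPM of the 8 bZIP genes (percent, vertical axis) in each library, with replicates 1 to 3 side by side per group. Right, ratio of ABI5 to EEL (filled circles) and of ABI5 to ABF4 (open triangles) in TPM within each library. The ABI5 share is lowest in odr1-2 in mannitol, at a mean of 46.2%, and highest in Col-0 in water, at 59.6%, and both ratios are likewise lowest and highest in these groups.

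Of the 5 other group A genes, 3 could be tested. GBF4, a G-box binding factor, was higher in mannitol than in water in odr1-2 (0.52 ± 0.14) and in Col-0 (0.53 ± 0.13), and its values for odr1-2 against Col-0 were -0.05 ± 0.13 in mannitol and -0.04 ± 0.14 in water, not called. GBF4 shares 392 exon bases, 34.1% of its exon length, with AT1G04233 on the other strand. AT5G44080, a further family member, was higher in mannitol in Col-0 (0.35 ± 0.13, adjusted p = 0.0223) and was not called in odr1-2 (0.19 ± 0.13), and the interaction (-0.15 ± 0.18) was not called. That Col-0 call was lost when replicate 1 (0.29) or 2 (0.28) of Col-0 in water or replicate 2 of Col-0 in mannitol (0.30) was left out. FD, the partner of the flowering signal FT, had 48, 47, 45 and 48 counts in odr1-2 in mannitol, odr1-2 in water, Col-0 in mannitol and Col-0 in water and was not called. AT5G42910 had 1 count and FDP 3 counts over the 12 libraries.

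A list of 26 genes that act on ABI5 or the ABFs held 22 tested ones: SnRK2 kinases, AFP binding proteins, ubiquitin ligase parts, phosphatases, and transcription factors of the embryo programme. In mannitol against water 10 were higher and 3 lower in odr1-2, and 6 higher and 4 lower in Col-0, which is 59.1% called in odr1-2 and 45.5% in Col-0. In odr1-2 against Col-0, 7 were higher and 1 lower in mannitol, and 8 higher and 2 lower in water, or 36.4% and 45.5%. These shares lie near those of all tested genes given above, apart from odr1-2 in mannitol, where 13 calls became 8 with scaling by total count and 7 by limma-trend from TPM. Median log2 fold changes of the list were 0.16, 0.06, 0.11 and 0.14 in the order of comparisons just given.

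FUS3, a B3 factor of embryo maturation, was the largest genotype difference among the 22 tested genes of that list. It had 22.45, 23.64 and 23.74 TPM in odr1-2 in mannitol against 2.36, 1.56 and 1.34 TPM in Col-0 in mannitol, and 23.33, 23.07 and 21.68 TPM in odr1-2 in water against 1.34, 1.64 and 1.17 TPM in Col-0 in water. The log2 fold change was 3.8 ± 0.18 in mannitol and 4.04 ± 0.18 in water. LEC2, in the list but too low to be tested, had 14 counts in odr1-2 in mannitol and 23 in odr1-2 in water. It had 0 in Col-0 in either medium, and is named after its values were seen. ABI3, a B3 factor that binds ABI5 protein, was not called between genotypes (-0.06 ± 0.05 in mannitol, 0.01 ± 0.05 in water) and is named after its values were seen. ABI4, an AP2-type factor of ABA signalling in seeds, was higher in odr1-2 than in Col-0 by 1.26 ± 0.07 in mannitol and 0.51 ± 0.06 in water. It was lower in mannitol than in water in odr1-2 (-0.51 ± 0.06) and in Col-0 (-1.26 ± 0.07). Its interaction was called, at 0.75 ± 0.09 (adjusted p = 1.85e-09), the only such call among the 22, or 4.55% of them against 3.75% of all tested genes. Without replicate 2 of Col-0 in mannitol there were 2.

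Among kinases, SnRK2.3 was higher in odr1-2 by 0.76 ± 0.06 in mannitol and 0.68 ± 0.06 in water. OST1, another SnRK2 kinase, was higher in odr1-2 by 1.20 ± 0.17 in mannitol and 0.64 ± 0.16 in water, and in Col-0 it was lower in mannitol than in water (-0.69 ± 0.18). AFP3, of the family that binds ABI5 and holds its activity back, was higher in mannitol in odr1-2 (1.13 ± 0.28) and in Col-0 (1.83 ± 0.36). AFP3 was also higher in odr1-2 than in Col-0, by 0.82 ± 0.28 in mannitol and 1.51 ± 0.37 in water, from 158 and 81 counts in odr1-2 and 91 and 27 counts in Col-0. BBX21, a B-box protein that acts on ABI5 transcription, was higher in mannitol by 0.66 ± 0.08 in odr1-2 and 0.61 ± 0.08 in Col-0. DWA2, part of a ubiquitin ligase that targets ABI5, was higher in mannitol in odr1-2 by 0.84 ± 0.31 and was not called in Col-0 (-0.11 ± 0.29), and its interaction (0.95 ± 0.42, adjusted p = 0.274) was not called.

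Most genes known as targets of these factors were called in each comparison of media or genotypes. Of 21 targets, 17 were higher and 2 lower in mannitol in odr1-2, and 18 higher and 2 lower in Col-0, which is 90.5% and 95.2% called, where 42.5% and 42.4% of all tested genes were. In odr1-2 against Col-0, 14 were higher and 3 lower in mannitol, and 18 higher and 1 lower in water, or 81% and 90.5%, where 40.1% and 39.0% of all tested genes were called. Their median log2 fold changes were 0.63 and 1.06 for mannitol in odr1-2 and Col-0, and 0.38 and 0.60 for odr1-2 against Col-0 in mannitol and in water. The list was chosen from known biology with earlier results of these libraries in view, and it is given as a description.

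EM1, the late embryogenesis gene at which EEL competes with ABI5, had 972.21, 1119.02 and 1106.14 TPM in odr1-2 in mannitol, 330.39, 398.15 and 381.39 TPM in odr1-2 in water, 992.77, 1090.23 and 1167.48 TPM in Col-0 in mannitol and 267.99, 274.19 and 271.13 TPM in Col-0 in water. It was higher in mannitol by 1.63 ± 0.09 in odr1-2 and 2.06 ± 0.09 in Col-0. In water it was higher in odr1-2 than in Col-0 (0.47 ± 0.09), and in mannitol the genotypes overlapped (0.04 ± 0.08, not called). EM6, of the same protein class, was higher in mannitol in Col-0 by 1.96 ± 0.06 and in odr1-2 by 1.52 ± 0.06. Unlike EM1, it was called higher in odr1-2 than in Col-0 in mannitol (0.38 ± 0.06, adjusted p = 7.92e-06) as well as in water (0.83 ± 0.06, adjusted p = 7.33e-11).

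RAB18, a dehydrin gene, averaged 4490 ± 150 TPM in odr1-2 in mannitol and 1460 ± 124 TPM in odr1-2 in water (SD, n = 3 each), a log2 fold change of 1.73 ± 0.10. It was higher in odr1-2 than in Col-0 in mannitol by 1.27 ± 0.10. RD29B, whose promoter is a classic ABRE reporter, averaged 274 ± 9.41 TPM in odr1-2 in mannitol, 190 ± 5.8 TPM in odr1-2 in water, 142 ± 2.16 TPM in Col-0 in mannitol and 46.2 ± 3.71 TPM in Col-0 in water. In water it was higher in odr1-2 by 2.06 ± 0.05. AT3G02480, an LEA-type target, was higher in odr1-2 by 1.37 ± 0.05 in mannitol and 1.79 ± 0.06 in water.

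The known targets of DPBF2 went both ways. DOG1, a central dormancy gene, had 27.89, 30.58 and 31.98 TPM in odr1-2 in mannitol, 10.6, 8.82 and 9.02 TPM in odr1-2 in water, 7.14, 8.49 and 8.85 TPM in Col-0 in mannitol and 1.06, 1.67 and 0.87 TPM in Col-0 in water. DOG1 was higher in odr1-2 by 1.94 ± 0.13 in mannitol and 2.98 ± 0.21 in water, and higher in mannitol by 1.78 ± 0.13 in odr1-2 and 2.82 ± 0.21 in Col-0. FAD3, which encodes the desaturase that makes linolenic acid of seed oil, averaged 111 ± 4.22 TPM in odr1-2 in mannitol, 173 ± 5.85 TPM in odr1-2 in water, 202 ± 18.9 TPM in Col-0 in mannitol and 255 ± 7.21 TPM in Col-0 in water. It was lower in odr1-2 by -0.80 ± 0.05 in mannitol and -0.54 ± 0.05 in water, and is named here after its values were seen.

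**Figure D5:**
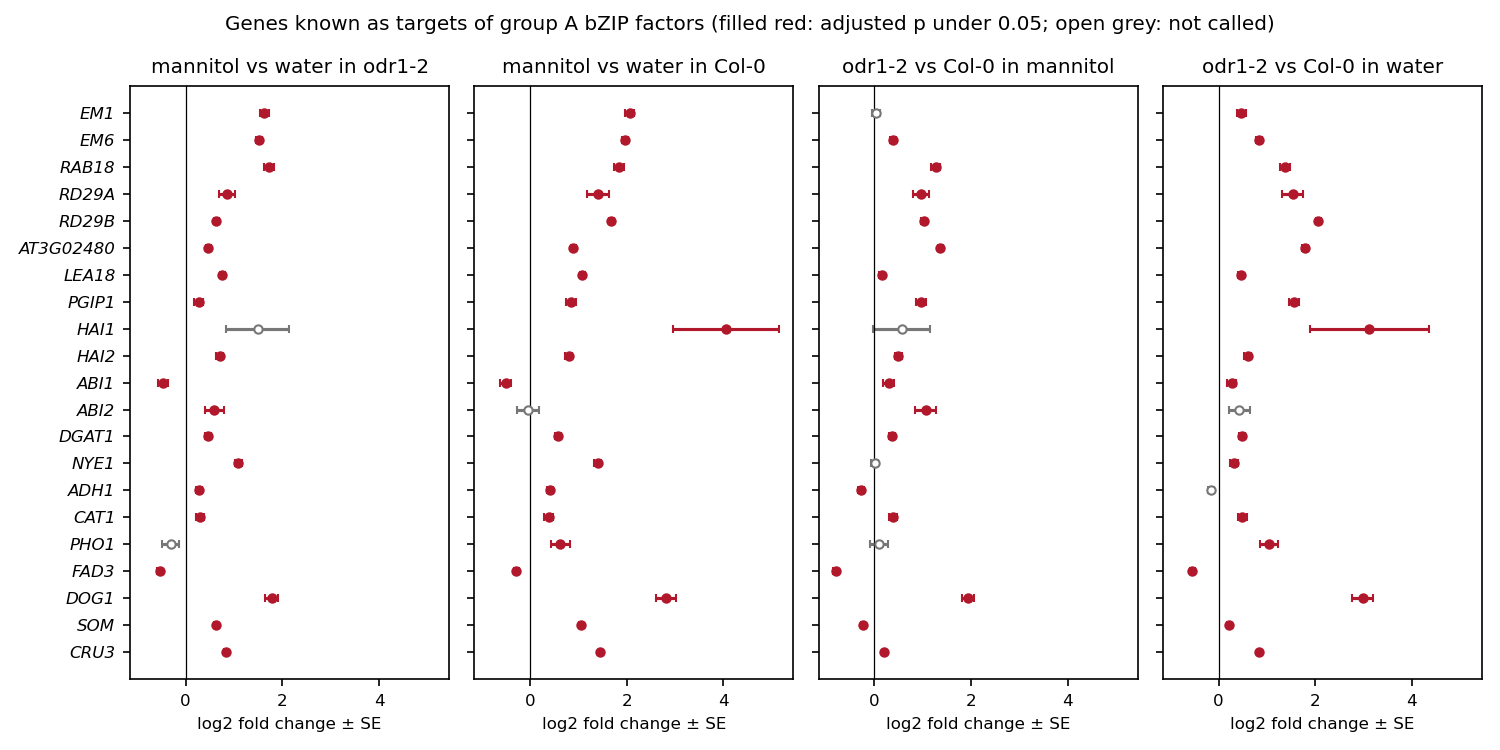
Log2 fold change ± SE of 21 genes known as targets of group A bZIP factors, FAD3 and DOG1 as targets of DPBF2, in mannitol against water within odr1-2 and within Col-0, and in odr1-2 against Col-0 within mannitol and within water. Filled red points have an adjusted p under 0.05, open grey points do not. Most points lie right of 0, FAD3 lies left of 0 in all 4 panels, and HAI1, with 1 count in Col-0 in water, has the widest error.

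In the interaction, where 0 of the 8 bZIP genes were called, 10 of the 21 targets were, or 47.6% against 3.75% of all tested genes. For all 10 the signed log2 fold change with mannitol was lower in odr1-2 than in Col-0. This is not a smaller change in each: FAD3 had -0.54 in odr1-2 and -0.28 in Col-0, both called lower, and PHO1 had -0.31 ± 0.18 in odr1-2, not called, and 0.63 ± 0.20 in Col-0, called higher. RD29B had the largest of these with -1.05 ± 0.07 (adjusted p = 8.96e-19), ahead of DOG1 with -1.04 ± 0.27 (adjusted p = 0.00965) and PHO1, a phosphate exporter gene, with -0.94 ± 0.26 (adjusted p = 0.0227). PGIP1, also among the 10 (-0.58 ± 0.14), shares 92.6% of its exon length with AT5G06865 on the other strand. Counts of AT5G06865 were 89% to 96.2% of those of PGIP1, and its part in the PGIP1 value was not tested. The median interaction of the targets was -0.42, against 0.08 for the 8 bZIP genes and -0.02 for all tested genes. Of the 7 storage genes given as embryo markers, 4 were lower and 1 higher in the interaction, and of 3 tested endosperm genes 2 were lower. The part of these in the target values was not tested.

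The genes whose pattern over the 12 libraries was most like each member were ranked by Pearson's r of log2 CPM among 11565 candidates. The libraries fall into the same 4 groups for each pair, so r describes shared group differences. For EEL these were AT5G42825 (0.996), AT2G38800 (0.996) and AT2G26355 (0.995), and for ABF4 RSH2 (0.994), LHCB4.1 (0.994) and BAM1 (0.993). ABI5 was most like J8 (0.984), AT5G24735 (0.983) and the zinc finger gene STOP1 (0.978), which averaged 120, 93.6, 110 and 81.1 TPM in odr1-2 in mannitol, odr1-2 in water, Col-0 in mannitol and Col-0 in water. DPBF2 was most like AT3G15770 (0.968), at 40.2 and 34.1 TPM in odr1-2 in mannitol and water and 17.7 and 18.6 TPM in Col-0 in mannitol and water, ahead of AT1G08477 (0.963) and AT3G23600 (0.954). ABF1 was most like MPK19 (0.965), AREB3 most like AT3G55070 (0.954), ABF2 most like AT3G56750 (0.924) and ABF3 most like AT1G72880 (0.779). Within the family, ABF4 and EEL gave 0.981, ABI5 and EEL 0.952, and ABI5 and ABF4 0.905. The lowest was ABF2 with ABF3, at -0.372.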

How the data were processed

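Per the labels, messenger RNA of seeds was captured on poly-T beads and copied with random hexamers. Tools listed in the submitters' processing notes are HTSeq 2.0.5, HISAT2 2.2.1 and fastp 0.23.1, with TAIR10 as build. Strand and multiple-mapping settings are not given in the sources used here. The authors deposited a table of raw read counts per gene and a table of TPM, 12 libraries each. Counts were used for the tests and TPM for levels. Counts over TPM tracked annotated TAIR10.1 exon length to 1% in 100% of the 16833 genes that had 200 counts or more.

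The quasi-likelihood test of edgeR 4.0.16 was run (R 4.3.3, robust spread, TMM scaling, filterByExpr with minimum count 10 and minimum total 15). The 12 libraries entered 1 fit of 4 group means, and the two-sided p-values were adjusted by Benjamini-Hochberg over 18413 genes. The standard error is the log2 fold change divided by the square root of F, and 95% intervals use 8 residual degrees of freedom. TMM factors ran from 0.96 to 1.03 and the common biological coefficient of variation was 5.8%. Replicates differed by more than counting error, with chi-square values of 2.01 to 5.75 for each degree of freedom. The highest, 5.75 and 4.48, were those of replicate 2 of Col-0 in mannitol against replicates 1 and 3. All other pairs lay between 2.01 and 2.81. Ratios were compared by exact permutation within strata.

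The genes named were the 8 members, the 5 other group A genes, up to 3 called members of each list per comparison with the largest log2 fold change and at least 1 CPM, and the 3 most alike genes (log2 CPM with a prior count of 2, mean of at least 10 CPM), of which the text gives 1 for 4 of the members. The members and lists were chosen with earlier results of these data known. The pipeline was tested on simulated data. Alternatives were other scalings (DESeq2 1.42.0 size factors, upper quartile, total count), no filter and a stricter filter, a replicate block, a spread not estimated robustly, DESeq2, limma-voom and limma-trend (limma 3.58.1) on log2 of TPM plus 1, the 2 groups alone, and leaving out each library. Promoters and coding sequences were read from RefSeq's TAIR10.1, whose gene coordinates are those printed.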

Additional observations from a re-analysis of the deposited data

How the results depend on the processing

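Over up to 23 alternatives each, ABI5, ABF1, ABF4 and EEL kept their mannitol calls in both genotypes, and ABF4, EEL, DPBF2 and, in water, ABI5 kept their genotype calls. Of 901 values of the bZIP genes under alternatives, 846 kept direction and side of the threshold, 26 lost a call, 6 gained one and 23 changed sign, all of these among uncalled values. AREB3 lost its mannitol call in 11 alternatives in odr1-2 and in 9 in Col-0, over ranges of 0.10 to 0.25 and 0.16 to 0.28. ABI5 in mannitol was not called between genotypes under upper-quartile scaling (0.10), total count scaling (0.11) or limma-trend on TPM (0.09). The limma-trend fit also ended the odr1-2 mannitol call of ABF2 (0.43) and gave DPBF2 smaller values (1.05 in mannitol and 0.79 in water). The cause of the lost calls and of the smaller values was not tested. The median of all genes moved by 0.1 in that fit for odr1-2 in mannitol (-0.10). ABF3 in odr1-2 against Col-0 in water changed sign under upper-quartile scaling (-0.04), total count scaling (-0.02) and DESeq2 (-0.00), and the ABF1 interaction under total count scaling (-0.02) and limma-trend (-0.03). Leaving out 1 library gave, for values that changed sign, -0.87 to 0.30 for DPBF2 and -0.31 to 0.13 for FD (mannitol, Col-0), and -0.21 to 0.03 for ABF3 (mannitol, odr1-2). For odr1-2 against Col-0 in water it gave -0.01 to 0.34 for ABF2, -0.26 to 0.25 for ABF3, -0.13 to 0.01 for GBF4, -0.14 to 0.08 for AT5G44080 and -0.37 to 0.11 for FD, and in mannitol -0.16 to 0.04 for GBF4 and -0.02 to 0.42 for FD. For the interaction it gave -0.15 to 0.18 for ABF1, -0.05 to 0.30 for ABF2, -0.09 to 0.05 for AREB3 and -0.12 to 0.08 for GBF4. For the log2 ratio between genotypes it gave -0.12 to 0.06 for ABI5 to ABF1, -0.12 to 0.04 to ABF2, -0.12 to 0.20 to ABF3 and -0.00 to 0.09 to AREB3. The labels do not say whether replicate numbers pair libraries. The 18 correlations of same-numbered deviations lay between -0.0264 and 0.0298. Libraries of different numbers were not compared in this way, so these values cannot settle whether libraries were paired. Over all genes, a replicate block gave more calls in every comparison, such as 7898 against 7798 for mannitol in Col-0. With the replicate block, 6 bZIP genes were called for mannitol in Col-0 (ABF2 joined, at 0.49), 6 in odr1-2, and 4 in each genotype comparison. Levels as CPM per kilobase with TMM scaling were lower than TPM by the change of unit, and shares of the family moved by less than 1 SD. The shares were bound to stay, since library scaling cancels within a library and the gene lengths were the same, so they test nothing. Depth limits DPBF2 and ABF3, at 13 to 91 counts per group, and these 2 genes and FD did not pass the stricter filter.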
